A study of Homo sapiens with 31 samples.

Results

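NAT8L, LPIN2, LPCAT1 and PNPLA2 encode 4 enzymes of lipid metabolism, and their transcripts were followed through every library of a lymphoma RNA sequencing study. They were picked by name, 4 of 63140 rows in each drug table and 4 of 25073 genes in the knock-in table. The choice was made with the drug results of these data in view, so their drug values are given here as a description, with no p-value. How many of them pass the threshold used for all rows is printed once beside the share of all rows that do, and supports nothing. Levels between cell lines without drug and between RHOA genotypes were tested. Results of those comparisons over other genes were also known at the choice, and the DMSO libraries are the drug controls too, so these tests are not wholly independent of it.

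The enzymes act at different steps. NAT8L joins an acetyl group from acetyl-CoA to aspartate and so makes N-acetylaspartate, a metabolite best known from neurons. LPIN2 removes the phosphate of phosphatidic acid to give diacylglycerol, the branch point between storage fat and membrane phospholipids. LPCAT1 puts a fatty acid back onto lysophosphatidylcholine and is best known for making the saturated phosphatidylcholine of lung surfactant. PNPLA2, also called adipose triglyceride lipase, takes the first fatty acid off the triglycerides of lipid droplets.

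The drug set held 27 libraries of TMD8, RIVA and HBL1, established human lymphoma lines of the activated B-cell type of diffuse large B-cell lymphoma, with RHOA labelled WT. Each line was kept for 10 h in DMSO (the solvent), in 10 nM ibrutinib (an inhibitor of the kinase BTK) or in 60 µM Rhosin (an inhibitor of the GTPase RHOA), with 3 libraries per group. The knock-in set held 4 libraries of TMD8 cells, 2 with WT RHOA and 2 with RHOA p.R5W, all of them kept overnight in 50 nM copanlisib, an inhibitor of PI3 kinase. No label says whether replicates came from separate cultures, whether the R5W cells are 1 clone, or how the knock-in was made, so p-values measure the spread between these libraries, which may be technical.

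Drug libraries held 8911238 to 14153796 counts, and knock-in libraries 19458941 to 21956572 recovered reads. In the knock-in table all 7 B-cell markers were present, with MS4A1 at 14.99 to 15.79 on the log2 scale. Of the drug table markers, CD72, a B-cell surface protein, had a checked label and held 231 to 731 CPM in TMD8, 49.4 to 138 in RIVA and 221 to 778 in HBL1. The other with a checked label, the plasma cell marker CD38, held 2.83 to 10.9 CPM in TMD8, 277 to 445 in RIVA and 70.7 to 289 in HBL1. Their part in differences between lines was not tested. In bulk RNA, fewer cells of a type and less RNA per cell cannot be told apart.

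Most rows of the drug tables did not carry the levels of the genes that their IDs name, so each label was checked against the WT libraries of the knock-in table. A label was accepted inside stretches of at least 30 neighbouring genes over which a running Spearman's rho of 21 genes stayed over 0.7, and within 2 log2 units of the trend. Over the 831 matched genes in 7 such stretches rho between drug table and WT levels was 0.91 in TMD8, 0.858 in RIVA and 0.829 in HBL1, against 0.072, 0.092 and 0.084 over the 16961 genes outside. Of the 831 genes 719 passed both parts, LPIN2, LPCAT1 and PNPLA2 among them, with a running rho of 0.966, 0.892 and 0.955. They lay 1.43, 1.16 and 0.29 log2 units above the trend. Both parts used TMD8 DMSO libraries, and both were chosen after the data were seen. The stretches were picked for a high rho in TMD8, so the TMD8 values inside and outside follow from that choice. RIVA and HBL1 libraries were not used to pick them, but the drug tables list the same IDs in the same order. Where the level of a row is alike between lines, the RIVA and HBL1 values follow from the TMD8 choice too. They are therefore not independent support.

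NAT8L did not pass. Its running rho was 0.757, but the run around it held 14 genes, and the stretch on its chromosome began downstream of it. Its own level lay 1.80 log2 units above the trend. When genes were matched by symbol alone, with 15161 in place of 17792 genes, the run held 130 genes and NAT8L passed. Its drug values are therefore those of the row labelled NAT8L, and whether they are that gene's transcripts is not established here.

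**Figure D1:**
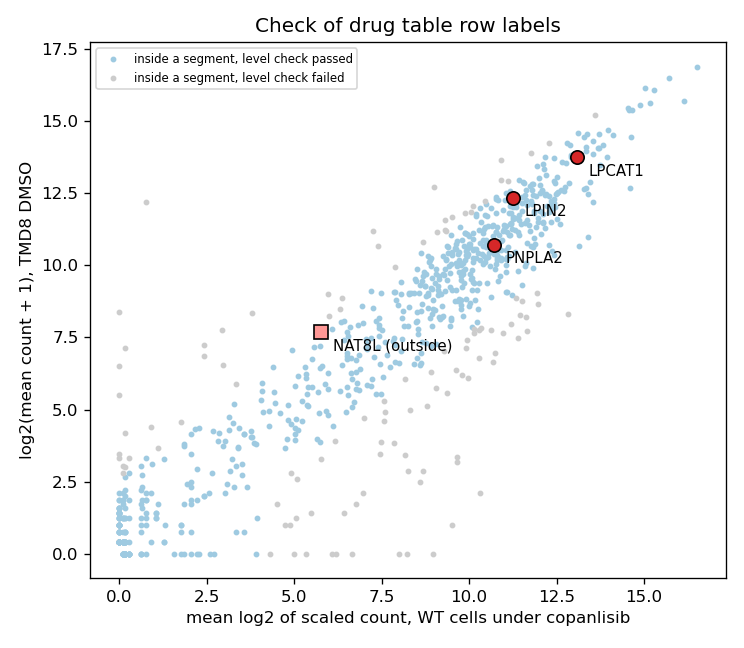
Check of drug table labels, with log2 of the mean TMD8 DMSO count plus 1 (vertical) against the mean log2 scaled count of the 2 WT libraries under copanlisib (horizontal). Each small point is a gene inside a stretch (blue, level check passed; grey, failed); LPIN2, LPCAT1 and PNPLA2 lie in the blue cloud, and NAT8L, at 5.76 and 7.69, is drawn as a square because it lies outside the stretches.

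In GENCODE v29 on GRCh38, NAT8L spans chr4:2059512-2069089 on the plus strand, LPIN2 chr18:2916994-3013315 on the minus strand, LPCAT1 chr5:1456480-1523977 on the minus strand and PNPLA2 chr11:818902-825573 on the plus strand. PNPLA2 is overlapped by the antisense gene AP006621.1 at chr11:823634-832883. LPIN2 is overlapped by 3 antisense genes, AP000919.2, AP000919.3 and AP000919.4, and by pseudogenes. LPCAT1 holds the microRNA gene MIR6075. The kits kept strand, but the counting setting is not given in the sources used here, so reads of overlapping genes cannot be told apart.

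RefSeq promoters (GRCh38.p14, 250 bases before to 50 after the start, 5′ to 3′ on the gene's strand) are shown for NAT8L and LPIN2, whose rows were both lower under both drugs in TMD8, and for PNPLA2, which was higher under Rhosin. Of 2 RefSeq starts of LPIN2, the one nearest the GENCODE start was taken. Capitals mark any of 4 short promoter motifs on either strand: the TATA box letters TATAAA, the CCAAT box, the GC box letters GGGCGG and the E-box letters CACGTG.
NAT8L, chr4:2059077-2059376: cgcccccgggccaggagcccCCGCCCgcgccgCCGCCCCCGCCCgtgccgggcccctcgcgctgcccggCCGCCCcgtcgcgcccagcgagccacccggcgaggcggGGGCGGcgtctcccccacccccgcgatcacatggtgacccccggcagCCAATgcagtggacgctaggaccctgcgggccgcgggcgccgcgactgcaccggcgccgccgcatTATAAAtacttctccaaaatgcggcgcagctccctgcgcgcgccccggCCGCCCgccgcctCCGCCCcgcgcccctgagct
LPIN2, chr18:3013095-3013394: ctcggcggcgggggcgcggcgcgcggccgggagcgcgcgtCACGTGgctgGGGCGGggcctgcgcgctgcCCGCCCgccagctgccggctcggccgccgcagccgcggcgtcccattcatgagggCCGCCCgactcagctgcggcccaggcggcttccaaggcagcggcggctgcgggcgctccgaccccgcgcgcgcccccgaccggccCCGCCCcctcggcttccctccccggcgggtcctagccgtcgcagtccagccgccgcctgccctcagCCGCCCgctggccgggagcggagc
PNPLA2, chr11:818664-818963: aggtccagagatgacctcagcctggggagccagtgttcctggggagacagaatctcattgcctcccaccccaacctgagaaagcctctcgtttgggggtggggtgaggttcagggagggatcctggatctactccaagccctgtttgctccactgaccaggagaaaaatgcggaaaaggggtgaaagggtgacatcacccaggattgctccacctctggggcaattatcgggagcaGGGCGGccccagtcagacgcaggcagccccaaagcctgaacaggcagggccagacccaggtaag

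The letters GGGCGG occurred 7 times in the NAT8L window, 5 times in LPIN2, 3 times in LPCAT1 and 1 time in PNPLA2, and in 45.0% of 35116 promoters. The letters TATAAA were present 1 time, in NAT8L, against 11.5% of all promoters, and the CCAAT box 1 time, also in NAT8L, against 34.6%. CACGTG was present 1 time, in LPIN2, against 7.26%. G and C made up 80.3% of the NAT8L window, 83.3% of LPIN2, 80.0% of LPCAT1 and 59.3% of PNPLA2. Overlapping matches numbered 0 in these windows, and a match describes letters only.

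The row labelled NAT8L was the lowest of the 4, with 31 to 370 counts per library. In TMD8 it held 21.1, 27.9 and 22.3 CPM (counts scaled to library size with TMM factors) in DMSO, 5.03, 3.57 and 6.18 in ibrutinib and 4.56, 6.94 and 6.18 in Rhosin. All 6 drug libraries lay below all 3 DMSO libraries. The share of all rows whose libraries separate without overlap was not counted, so separations here and below are descriptions only. The exact 95% Poisson interval, which covers counting error only, ran from 18.1 to 24.4 CPM in the lowest DMSO library and from 5.43 to 8.74 CPM in the highest Rhosin library. The log2 difference from DMSO was -2.33 (SE 0.2) under ibrutinib and -2.11 (SE 0.193) under Rhosin, and 0.23 (SE 0.226) between Rhosin and ibrutinib.

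In RIVA the row labelled NAT8L showed no such separation. It held 20.99, 21.7 and 24.9 CPM in DMSO, 19.7, 23.3 and 21.4 in ibrutinib and 28.3, 22.9 and 30.1 in Rhosin, so the ranges of both drugs overlapped that of DMSO. The log2 differences were -0.07 (SE 0.137) and 0.27 (SE 0.135). In HBL1 it held 7.83, 11.4 and 10.9 CPM in DMSO, 6.39, 5.38 and 6.56 in ibrutinib and 10.9, 9.17 and 10.1 in Rhosin. There the 3 ibrutinib libraries alone lay below DMSO, at -0.70 (SE 0.173), while Rhosin was at 0.00 (SE 0.152) and overlapped it.

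LPIN2, the phosphatidic acid phosphatase, lay on opposite sides of DMSO under Rhosin in different lines. In TMD8 it held 616, 570 and 587 CPM in DMSO, 379, 340 and 346 in ibrutinib and 411, 396 and 368 in Rhosin, so every drug library lay below every DMSO library. The log2 differences from DMSO were -0.81 (SE 0.0859) and -0.68 (SE 0.0857). In RIVA it held 553, 592 and 540 CPM in DMSO, 569, 559 and 546 in ibrutinib and 702, 671 and 702 in Rhosin. Every RIVA Rhosin library lay above every DMSO library, at 0.30 (SE 0.0755), while ibrutinib overlapped DMSO at -0.02 (SE 0.0755). In HBL1 it held 235, 199 and 239 CPM in DMSO, 182, 175 and 162 in ibrutinib and 196, 181 and 193 in Rhosin. Both drugs lay below DMSO there, at -0.37 (SE 0.0752) and -0.24 (SE 0.0748). The Rhosin effect in TMD8 minus that in RIVA was -0.89 (SE 0.122), and that in RIVA minus that in HBL1 was 0.54 (SE 0.122). Both came from a fit of all 27 libraries without a block, so they need not equal differences between the line fits above. These differences were not tested.

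LPCAT1, the lysophosphatidylcholine acyltransferase, was lower under Rhosin than in DMSO in each line without overlap. In TMD8 it held 1666, 1652 and 1417 CPM in DMSO, 1564, 1508 and 1509 in ibrutinib and 1336, 1394 and 1345 in Rhosin. Rhosin differed from DMSO by -0.31 (SE 0.085), and ibrutinib, which overlapped DMSO, by -0.12 (SE 0.0849). In RIVA it held 483, 420 and 587 CPM in DMSO, 350, 372 and 339 in ibrutinib and 297, 290 and 293 in Rhosin. The differences from DMSO were -0.50 (SE 0.113) under ibrutinib and -0.76 (SE 0.114) under Rhosin, and neither drug overlapped DMSO. In HBL1 it held 646, 699 and 654 CPM in DMSO, 552, 411 and 486 in ibrutinib and 463, 339 and 387 in Rhosin. The differences there were -0.47 (SE 0.0918) and -0.77 (SE 0.0922), again with no overlap with DMSO.

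PNPLA2, the triglyceride lipase, was the member whose Rhosin and ibrutinib values stood furthest apart in TMD8 and RIVA. In TMD8 it held 199, 226 and 157 CPM in DMSO, 188, 234 and 231 in ibrutinib and 327, 368 and 317 in Rhosin. Rhosin lay above DMSO and ibrutinib without overlap, by 0.71 (SE 0.121) and 0.61 (SE 0.121), and ibrutinib overlapped DMSO at 0.10 (SE 0.121). In RIVA it held 233, 347 and 330 CPM in DMSO, 239, 384 and 323 in ibrutinib and 460, 660 and 571 in Rhosin. Rhosin was again above both groups, by 0.90 (SE 0.183) against DMSO and 0.84 (SE 0.183) against ibrutinib. In HBL1 it held 80.2, 103 and 94.96 CPM in DMSO, 66.9, 119 and 73.1 in ibrutinib and 108, 153 and 87.4 in Rhosin. The HBL1 groups overlapped, at 0.29 (SE 0.107) for Rhosin and -0.13 (SE 0.109) for ibrutinib against DMSO with the replicate number as a block.

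**Figure D2:**
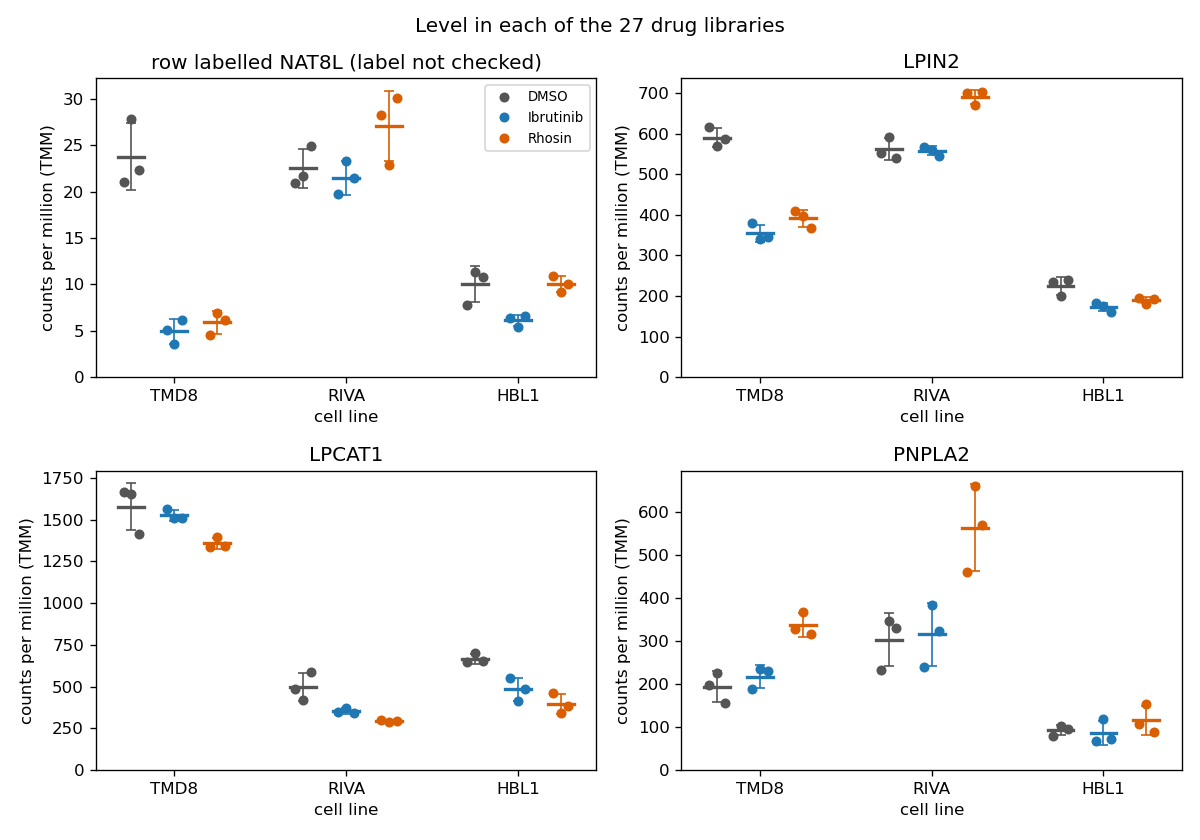
CPM after TMM scaling (vertical, from 0) of each member in the 27 drug libraries, grouped by cell line (horizontal) and coloured by treatment; points are libraries, thick lines means and error bars SD (n = 3). In TMD8 the row labelled NAT8L and LPIN2 are lower under both drugs, PNPLA2 is higher under Rhosin in TMD8 and RIVA, and LPIN2 under Rhosin is lower in TMD8 and higher in RIVA.

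A row was called by edgeR's quasi-likelihood test, Benjamini-Hochberg adjusted p under 0.05 over all rows. By that rule 4 of 4 members were called for Rhosin against DMSO in TMD8, where 52.7% of all rows were. For ibrutinib 2 were called (36.9% of rows), NAT8L and LPIN2, and between the drugs 1 (11.1%), PNPLA2. In RIVA 3 members were called for Rhosin (16.8%), 0 for ibrutinib with edgeR (0.912%) and 2 between the drugs (9.18%). Of those 0, LPCAT1 alone had an unadjusted p under 0.05, and DESeq2 called 1 member, also LPCAT1, where it called 1.76% of rows. In HBL1 2 were called in the Rhosin contrast (25.6%), 3 in that of ibrutinib (8.66%) and 3 between drug groups (12.7%). Among rows with checked labels the shares called were higher than over all rows, for example 65.6% for Rhosin and 49.8% for ibrutinib in TMD8. Because these contrasts were known when the members were chosen, the counts were conditioned on the choice and nothing is read from them.

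The HBL1 calls rest on the replicate block. Without it edgeR called 0 members in each HBL1 contrast, with 0.0336%, 0.118% and 0% of all rows called, while no member's log2 difference moved by more than 0.04. That fit held 1 member at an unadjusted p under 0.05 in the Rhosin contrast, 3 in that of ibrutinib and 1 between drug groups. DESeq2, run with the block, called 2, 3 and 3.

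Single libraries also moved these counts, which is given as a limit and not as a measure of how firm any difference is. In HBL1, LPIN2 under Rhosin was no longer called without DMSO replicate 1 or 3 or any 1 Rhosin library, at -0.26 to -0.18, and under ibrutinib without Ibrutinib replicate 3 (-0.29). The NAT8L row lost its ibrutinib call without DMSO replicate 2 or 3 or Ibrutinib replicate 2 or 3, at -0.72 to -0.51, and LPCAT1 without Ibrutinib replicate 2 (-0.40). PNPLA2 under Rhosin gained a call without DMSO replicate 3 (0.45) or Rhosin replicate 3 (0.43), and also with no low count filter (0.28) or without mitochondrial rows (0.31). Between the HBL1 drug groups each call was lost without at least 1 library. They were Ibrutinib replicate 2 or 3 or Rhosin replicate 1 for the NAT8L row (0.55 to 0.72), Ibrutinib replicate 1 or 3 or Rhosin replicate 2 or 3 for LPCAT1 (-0.30 to -0.21), and Ibrutinib replicate 1 or 3 or Rhosin replicate 1 or 2 for PNPLA2 (0.31 to 0.40).

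In RIVA, LPIN2 under Rhosin was no longer called without DMSO replicate 1, Rhosin replicate 1 or Rhosin replicate 3, at 0.29 each time. LPCAT1 under ibrutinib gained a call without DMSO replicate 2 (-0.60). Between the RIVA drug groups, LPIN2 lost its call without Ibrutinib replicate 3 or any 1 Rhosin library (0.30 to 0.34), and PNPLA2 without Ibrutinib replicate 3 (0.86), Rhosin replicate 2 (0.71) or Rhosin replicate 3 (0.83).

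**Figure D3:**
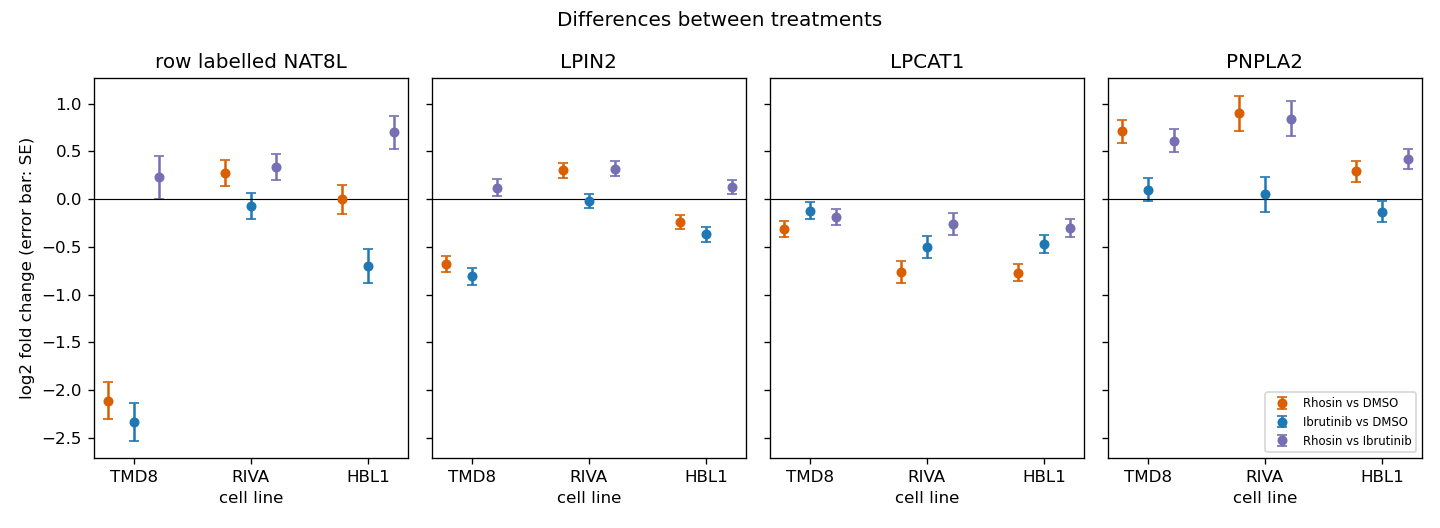
Log2 fold change (vertical) with its SE for Rhosin against DMSO, ibrutinib against DMSO and Rhosin against ibrutinib, by cell line (horizontal), 1 panel per member. The TMD8 values of the row labelled NAT8L, -2.11 and -2.33, are the furthest from 0, and PNPLA2 is above 0 for Rhosin in each line.

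Without drug, LPIN2, PNPLA2 and the row labelled NAT8L were lowest in HBL1 and LPCAT1 was lowest in RIVA, and here the differences were tested. HBL1 was lower than TMD8 for all 4, where 67.6% of all rows and 78% of the 586 tested rows with checked labels were called. Of those 586 rows, 309 were lower in HBL1 and 148 higher, so a lower level there was the more common result. LPIN2 was lower in HBL1 by a log2 difference of -1.37 (SE 0.11, edgeR adjusted p = 3.36e-07), LPCAT1 by -1.22 (SE 0.135, adjusted p = 5.33e-06) and PNPLA2 by -1.04 (SE 0.175, adjusted p = 0.000186). The row labelled NAT8L was lower by -1.21 (SE 0.177, adjusted p = 5.64e-05).

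Between RIVA and TMD8, 2 of 4 members were called, against 57.1% of all rows and 71.5% of those with checked labels. LPCAT1 was lower in RIVA by -1.64 (SE 0.136, edgeR adjusted p = 8.16e-07), at 496.7 ± 84.1 CPM against 1579 ± 140 in TMD8 (SD, n = 3). PNPLA2 was higher in RIVA by 0.67 (SE 0.173, adjusted p = 0.00522), at 303.3 ± 61.4 against 194 ± 35.2 CPM. LPIN2 at -0.05 (SE 0.108, adjusted p = 0.732) and the row labelled NAT8L at -0.05 (SE 0.169, adjusted p = 0.827) did not pass the test.

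Between HBL1 and RIVA all 4 were called, against 68.4% of rows and 77.3% of those with checked labels. Of the 586 tested rows with checked labels, 272 were lower in HBL1 and 181 higher. LPIN2 was lower in HBL1 by -1.32 (SE 0.11, edgeR adjusted p = 4.21e-07), PNPLA2 by -1.71 (SE 0.178, adjusted p = 3.11e-06) and the row labelled NAT8L by -1.16 (SE 0.175, adjusted p = 7.15e-05). LPCAT1 was higher in HBL1 by 0.42 (SE 0.133, adjusted p = 0.0129), a call lost without RIVA DMSO replicate 2 (0.30, adjusted p = 0.0759). The order of lines was thus TMD8, HBL1, RIVA for LPCAT1 and RIVA, TMD8, HBL1 for PNPLA2, and for LPIN2 TMD8 and RIVA did not differ beyond their spread. Each line was deposited as its own table, so line and table cannot be told apart, and the shares called were high for all rows.

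TMD8 cells with RHOA R5W held more NAT8L than WT cells under copanlisib. The log2 scaled count of NAT8L was 6.14 and 5.39 in the WT libraries, against 6.94 and 7.31 in those with R5W, and both R5W libraries lay above both WT libraries. They came from 60 and 34 recovered reads in WT and 100 and 120 in R5W. The log2 difference was 1.34 (SE 0.259, limma adjusted p = 0.00225), and 1.31 with edgeR on the recovered reads (adjusted p = 0.00437). That count test called 24.8% of genes. This table names its genes by symbol, so the open label of the drug table row does not concern it. That row was lower under both drugs in TMD8, but no copanlisib-free library of the knock-in set was analysed here, so the values stand side by side only.

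The other 3 members did not pass the test between genotypes. LPIN2 stood at 11.18 and 11.33 in WT against 11.38 and 11.24 with R5W (difference 0.06, SE 0.0867, limma adjusted p = 0.66). LPCAT1 had 13.06 and 13.10 against 13.21 and 13.14 (0.10, SE 0.0718, adjusted p = 0.364). PNPLA2 had 10.71 and 10.71 against 10.84 and 10.66 (0.04, SE 0.0885, adjusted p = 0.805). With 1 of 4 members called and 25% of all genes called, the members' share equals the background.

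**Figure D4:**
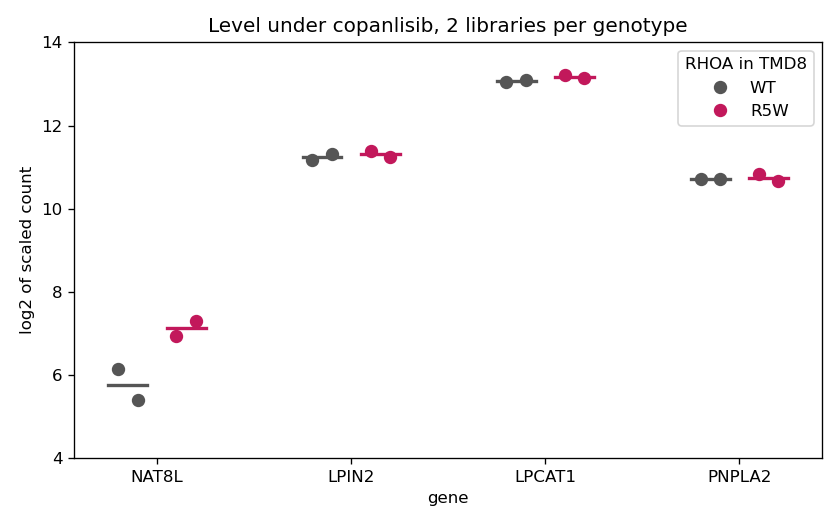
Log2 of the scaled count (vertical) of each member (horizontal) in TMD8 cells under copanlisib, 2 WT libraries (grey) and 2 R5W libraries (magenta), with lines at the means. NAT8L averages 5.76 in WT and 7.12 in R5W, and the other members differ by at most 0.10.

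Per kilobase of the length the authors list, LPCAT1 was the highest member in this table, at 2159 to 2398 scaled counts per kilobase over the 4 libraries. PNPLA2 followed at 775.9 to 882.1, LPIN2 at 370.8 to 427.2 and NAT8L at 17.9 to 67.4. These ranges did not overlap between members.

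Marker levels of other cell types were set beside the NAT8L difference. Of the fibroblast list (COL1A1, COL1A2, DCN) 2 of 3 genes were higher in R5W by the same test, and its summed scaled counts were 334.2 to 364.9 in WT and 775.4 to 802.2 in R5W. Of the 7 B-cell markers 5 were lower, with sums of 130700 to 132900 in WT and 96380 to 101700 in R5W. Of the 3 neuron markers, SNAP25 was at 0 in every library, and the sums were 42.22 to 60.4 and 52.83 to 85.78. Of the 4 adipocyte markers 2 were at 0 in every library, FABP4 and LEP, and the sums stayed at 1.17 to 3.70 and 1.32 to 2.46. Of 4 plasma cell markers 1 was higher, with sums of 9449 to 10030 and 10120 to 11860. T-cell markers, 2 of 4 at 0, summed to 35.76 to 43.38 and 22.12 to 54.08, and 3 myeloid markers to 8.63 to 10.56 and 7.37 to 17.2. The part of these genes in the NAT8L difference was not tested.

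Partner genes of the same pathways came from 5 lists of 131 genes, which were also set with drug results of these data known, so their tests are not independent evidence. Only 6 of these had checked labels in the drug set. Rhosin in TMD8 changed all 5 that could be tested, raising 3 and lowering 2, where 52.7% of all rows and 65.6% of the 550 tested rows with checked labels were called. PLIN2, a lipid droplet coat protein, held 156, 151 and 175 CPM in DMSO and 90.0, 87.5 and 88.2 in Rhosin, and fell by 0.95 on the log2 scale (SE 0.0905, edgeR adjusted p = 1.58e-07). PLIN3 and PLIN4, coat proteins of the same family, rose by 0.62 (SE 0.12, adjusted p = 0.000292) and 1.32 (SE 0.216, adjusted p = 5.86e-05). PLIN4 was low, at 3.06, 4.44 and 2.81 CPM in DMSO and 7.94, 10.8 and 8.28 in Rhosin. MBOAT1, a lysophospholipid acyltransferase, rose by 0.65 (adjusted p = 0.0104), and PTDSS2, a phosphatidylserine synthase, fell by 0.33 (adjusted p = 0.0127). PTDSS2 was no longer called without DMSO replicate 2 (-0.21) or Rhosin replicate 1 (-0.28).

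Ibrutinib in TMD8 changed 3 of the 5, where 36.9% of all rows and 49.8% of those with checked labels were called. PLIN2 fell by 0.75 (SE 0.0902, edgeR adjusted p = 7.92e-06), PTDSS2 fell by 0.52 (adjusted p = 0.000862) and PLIN4 rose by 0.86 (adjusted p = 0.00603). PLIN3 stood at 0.31 (adjusted p = 0.0521) and passed under DESeq2 (0.32, adjusted p = 0.0462) and without DMSO replicate 2 (0.45) or Ibrutinib replicate 1 (0.44). Between the drugs in TMD8, edgeR called 0 of the 5, and so did DESeq2, while 3 had an unadjusted p under 0.05. With no low count filter PLIN3 was called (0.33, adjusted p = 0.0334). PLIN3 and PLIN4 stood at 0.31 and 0.46.

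In RIVA 4 list genes could be tested and edgeR and DESeq2 each called 0 in every drug contrast, while 1 had an unadjusted p under 0.05 for Rhosin, 1 under ibrutinib and 3 when the drugs were compared. The shares called there were 16.8%, 0.912% and 9.18% of all rows and 27%, 2.18% and 16.7% of those with checked labels, so a count of 0 among 4 genes says little. PLIN2 was at -0.06 (SE 0.0997) under Rhosin and PLIN4 at 0.44 (SE 0.169, edgeR adjusted p = 0.0946). In HBL1 all 6 could be tested, and edgeR called 3 for Rhosin, where 25.6% of all rows and 43.5% of those with checked labels were. DESeq2 called 1 of them, PLIN2, with PLIN5 at 1.03 (adjusted p = 0.119) and no adjusted p for MBOAT1. By edgeR Rhosin raised MBOAT1 by 1.55 (adjusted p = 0.0103) and PLIN5, another droplet coat protein, by 1.08 (adjusted p = 0.0418), while PLIN2 fell by 0.23 (adjusted p = 0.0305). PTDSS2 was higher under Rhosin than under ibrutinib by 0.31 (adjusted p = 0.0339). MBOAT1 and PLIN5 were at or under 3.79 CPM in HBL1, and none of these 4 calls held without the replicate block. Each was also lost without at least 1 library: MBOAT1 without DMSO replicate 1 (1.48) or 2 (1.21), PLIN5 without DMSO replicate 1 or 2 or Rhosin replicate 2 or 3 (0.62 to 1.13), PLIN2 without DMSO replicate 1 or 2 or Rhosin replicate 1 or 2 (-0.25 to -0.17), and PTDSS2 without any Ibrutinib library or Rhosin replicate 1 or 2 (0.22 to 0.37). Ibrutinib changed 0 of the 6 in HBL1 by edgeR and by DESeq2, with 2 at an unadjusted p under 0.05. Whether an effect on a list gene differed between lines was not tested.

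In the knock-in table the lists could be read in full. Among 19 lipid droplet and lipolysis genes tested, 5 were higher and 4 lower in R5W, with a median of -0.01 beside 0.011 over all 13698 genes, of which 13.1% were higher and 11.9% lower. PLIN2 rose by 0.66 (SE 0.0966, limma adjusted p = 0.000345), ABHD5, the activator of PNPLA2, by 0.46 (adjusted p = 0.0389) and ACSL1, which activates fatty acids, by 0.38 (adjusted p = 0.00714). MGLL, which splits monoglycerides, fell by 0.63 (adjusted p = 0.000159), LIPA, the lysosomal acid lipase, by 0.37 (adjusted p = 0.0238) and PLIN3 by 0.32 (adjusted p = 0.0172).

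Of 22 glycerolipid synthesis genes, 5 were higher and 3 lower, with a median of 0.06. CDS1, a CDP-diacylglycerol synthase, rose by 1.04 (limma adjusted p = 0.00298), PLPP5 by 0.93 (adjusted p = 0.00791) and the acyltransferase AGPAT5 by 0.42 (adjusted p = 0.0044). LPIN3, a relative of LPIN2 with the same activity, fell by 0.58 (adjusted p = 0.0424), and the triglyceride synthases DGAT2 and DGAT1 by 0.38 (adjusted p = 0.02) and 0.32 (adjusted p = 0.0403).

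Of 27 genes of phospholipid head groups and acyl remodelling, 2 were higher and 7 lower, with a median of -0.06. LPCAT4, an enzyme related to LPCAT1, rose by 0.51 (limma adjusted p = 0.0044), and SELENOI, an ethanolamine phosphotransferase, by 0.50 (adjusted p = 0.000712). The phospholipases PLA2G6 and PNPLA8 fell by 0.56 and 0.54 (adjusted p = 0.00134 for both), and the acyltransferase LPGAT1 by 0.51 (adjusted p = 0.00084).

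Of 14 genes of N-acetylaspartate and acetyl-CoA, 1 was higher and 0 lower, with a median of 0.04. It was SLC25A13, a mitochondrial carrier that exports aspartate, the substrate of NAT8L, which rose by 0.72 (SE 0.0947, limma adjusted p = 0.000146). ASPA, which breaks down N-acetylaspartate, was too low to be tested. Of 28 sterol and fatty acid synthesis genes, 3 were higher and 0 lower, with a median of 0.17. Among them FASN, the fatty acid synthase, rose by 0.65 (limma adjusted p = 0.00134), and LSS, an enzyme of cholesterol synthesis, by 0.49 (adjusted p = 0.000955). Of the 21 list genes that the naming rule took for R5W, 5 were called whichever library was left out (FASN, MGLL, PLIN2, PNPLA8 and SLC25A13), and 16 lost their call without at least 1 library. All 16 lost it without 1 of the WT libraries, which leaves a lone WT library whose spread is taken to be that of the R5W pair, and LPIN3 (-0.38) and ABHD5 (0.31) also without R5W replicate 1. NAT8L kept its call each time.

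The members' courses over the drug libraries were compared with those of 489 or 490 tested genes with checked labels, by Pearson's r of log2(CPM + 1) after subtracting each line's mean. The 27 libraries share lines and treatments, so r describes likeness only. The row labelled NAT8L was most like SPIRE1 (r = 0.88), CBARP (0.88) and MED10 (0.84), with a median of 0.06 over all. LPIN2 was most like SPIRE1 (0.82), SMARCA2 (0.76) and NADK2 (0.74), so SPIRE1, an actin nucleator, stood among the nearest of both. LPCAT1 was most like its chromosomal neighbour CLPTM1L (0.83), DPP9 (0.78) and DOHH (0.78). PNPLA2 was most like LMNTD2 (0.91), UBXN6 (0.90) and HCN2 (0.89). In every RIVA group replicate 1 was lowest and replicate 2 highest for PNPLA2, LMNTD2 and HCN2, though not for UBXN6. These r values thus also take in differences between libraries of a group.

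**Figure D5:**
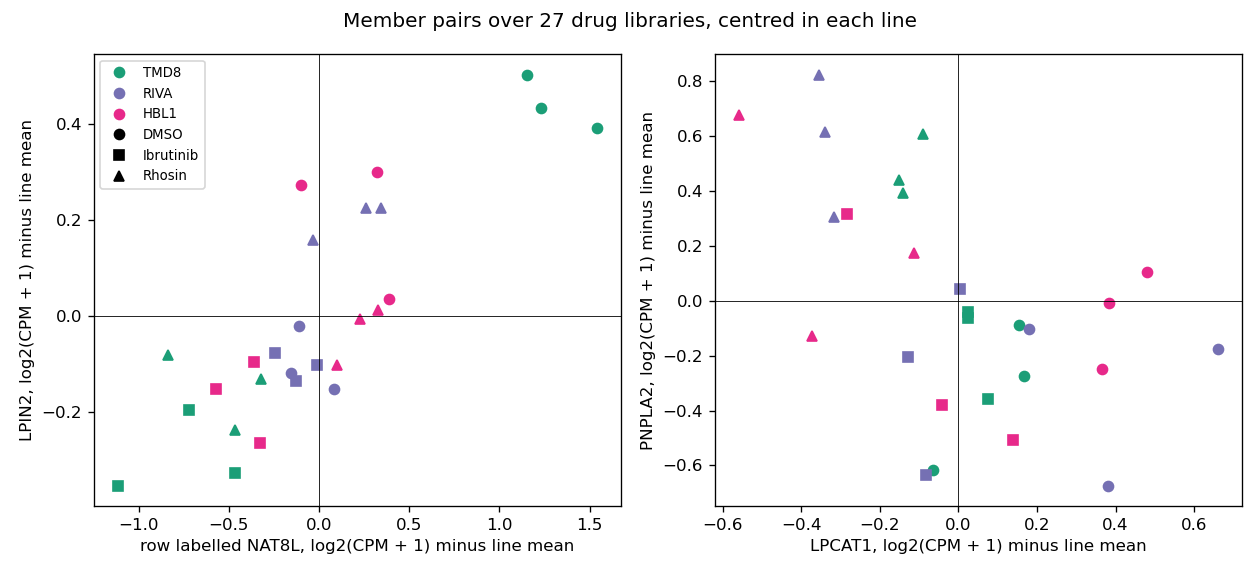
Log2(CPM + 1) minus the mean of each line for the row labelled NAT8L against LPIN2 (left) and for LPCAT1 against PNPLA2 (right) in 27 libraries, coloured by line and shaped by treatment. On the left the 3 TMD8 DMSO libraries stand apart at the upper right, with NAT8L at 1.16 to 1.54; on the right the Rhosin libraries of TMD8 and RIVA lie at the upper left.

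Neighbouring genes on the chromosome did not all share the members' values. For Rhosin 52.7% of all rows were called in TMD8, 16.8% in RIVA and 25.6% in HBL1. Among rows with checked labels the shares were 65.6%, 27% and 43.5%. The HBL1 p-values below come from the fit with the replicate block, without which 0.0336% of all rows were called. EMILIN2 and MYOM1 flank LPIN2, and under Rhosin in TMD8 EMILIN2 fell by 0.78 (edgeR adjusted p = 2.72e-05) while MYOM1 rose by 1.38 (adjusted p = 6.49e-08). In RIVA, where LPIN2 lay higher under Rhosin, EMILIN2 fell by 0.62 (adjusted p = 0.00139) and MYOM1 stood at -0.24 (adjusted p = 0.544). In HBL1 they stood at -0.09 (adjusted p = 0.389) and 0.93 (adjusted p = 0.0745). Beside LPCAT1, CLPTM1L fell under Rhosin by 0.51 in TMD8, 0.58 in RIVA and 0.51 in HBL1 (adjusted p = 4.05e-05, 0.000584 and 5.66e-05). MRPL36, on the other side, fell by 0.90, 0.50 and 0.38 (adjusted p = 3.11e-07, 0.0178 and 0.00555). CRACR2B, downstream of PNPLA2 on the same strand, rose under Rhosin by 1.11 in TMD8, 0.94 in RIVA and 1.65 in HBL1 (adjusted p = 5.28e-07, 0.00197 and 0.00538). Without drug, HBL1 stood at -5.34 on the log2 scale against TMD8 for CRACR2B and at -7.56 for MYOM1. The HBL1 values of these genes therefore rest on low counts. RPLP2, on the other side of PNPLA2, was at -0.04, 0.07 and -0.05 (adjusted p = 0.675, 0.663 and 0.622). CRACR2B starts within 2000 bases of the end of PNPLA2, and whether reads of one are counted under the other was not tested. The nearest gene with a checked label beside NAT8L was GRK4, at -0.41 under Rhosin and -0.63 under ibrutinib in TMD8 (adjusted p = 0.161 and 0.0562).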

How the data were processed

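The authors deposited raw counts per Ensembl ID for 27 drug libraries and log2 values per gene for 4 knock-in libraries, where they also list a transcript length. After 2 was raised to each deposited log2 value, 100.0% of values up to 200 reads were whole multiples, within 0.1 read, of what a single read is worth in that library. Tools named in the submitters' processing notes are STAR, RSEM, cutadapt, bcl2fastq and Picard, with builds GRCh37 and hg19, without versions or order. Positions come from GENCODE v29 (GRCh38), with no conversion.

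The 9 libraries of a line were fitted with edgeR 4.0.16 (filterByExpr, TMM, quasi-likelihood) in R 4.3.3, for HBL1 with replicate as a block. DMSO libraries of the 3 lines shared a fit. For genotype, limma 3.58.1 (trend and robust options) was run on log2(value + 1), over genes with a value of at least 10 in 2 libraries; this scale understates changes of low genes. Same-numbered HBL1 libraries deviated together (r from 0.37 to 0.75). Elsewhere r ran from -0.01 to 0.32 in TMD8 and from -0.17 to 0.48 in RIVA, and was -0.06 in the knock-in set. RIVA replicates 1 and 2 reached 0.48 and 0.47, while RIVA replicate 3 stayed between -0.17 and 0.12. Same-numbered libraries thus clearly deviated together for every replicate in HBL1 alone. No r between differently numbered libraries is given for comparison. A possible pairing of some RIVA samples was not part of the main fit. No 2 libraries of a group agreed within sampling noise. In each HBL1 group replicate 2 differed more from replicates 1 and 3 than these did from each other. The HBL1 r was highest for replicate 2, at 0.68 to 0.75. Where replicate 2 stands apart in each group, replicates 1 and 3 can deviate together for that reason alone. Their r, 0.45 to 0.5 and 0.37 to 0.4, therefore does not settle whether they are paired by number. The 13 mitochondrial rows took 20.5% to 27.8% of drug counts. The fits were also run on simulated data with the same spread for all rows, few changed rows and no replicate effect. Because the libraries differ from these settings, nothing is read from that run. DESeq2 1.42.0, other normalizations, filters and pseudocounts, and leaving out each library were tried.

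The members and lists were chosen with earlier results of these data known. List genes named are those with a checked label that passed in a drug contrast, and for R5W up to 3 called genes per list and direction, by size of change. A gene that this rule took is not reported here.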

Additional observations from a re-analysis of the deposited data

Results flagged for a closer look

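LPIN2 under Rhosin lay on opposite sides of DMSO in different lines: every Rhosin library lay below every DMSO library in TMD8 and in HBL1, and above every DMSO library in RIVA. In HBL1 the gap, 195.9 CPM in the highest Rhosin library against 199.2 in the lowest DMSO library, was within counting error. The share of all rows that separate in this way was not counted. In the fit of all 27 libraries, the effect in TMD8 minus that in RIVA was -0.89 on the log2 scale, and that in RIVA minus that in HBL1 was 0.54. The difference itself was not tested, because the members were chosen with these effects known. The RIVA call for LPIN2 was lost without DMSO replicate 1, Rhosin replicate 1 or Rhosin replicate 3. The HBL1 call was lost with no replicate block and without DMSO replicate 1 or 3 or any 1 Rhosin library, with values of -0.26 to -0.18. These calls were conditioned on the choice of genes and support no direction.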

How the results depend on the processing

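Over the 4 members, 247 of 260 values under other scalings, tools, filters, pseudocounts or pairing kept their side of the threshold, as did 268 of 304 with 1 library left out; 1 and 14 of these, not called, changed sign, and no called value did. The cause of each change was not tested. For ibrutinib in RIVA, 1 member in place of 0 was called with DESeq2, with no low count filter and with the replicate block. In HBL1, 0 members were called with no replicate block in place of 2, 3 and 3; the block changed no other member call. PNPLA2 made it 3 in place of 2 for Rhosin in HBL1 with no low count filter and without mitochondrial rows. Of list genes named for TMD8, PLIN3 was called with the replicate block under ibrutinib (0.31, edgeR adjusted p = 0.00589) and between the drugs (0.32, adjusted p = 0.0106). A pairing of TMD8 samples by number was not clear, with r from -0.01 to 0.32. Over the list genes, 394 of 415 values under other settings and 403 of 462 with 1 library left out kept their side of the threshold. Leaving out 1 library gave 0 to 1 members for ibrutinib in RIVA, 0 to 2 between the RIVA drug groups, and in HBL1 1 to 2 for Rhosin, 1 to 3 for ibrutinib and 0 to 2 between the drugs; in TMD8 and R5W the counts stayed at 4, 2, 1 and 1. Matching genes by symbol alone, chosen after seeing the data, passed 4 labels in place of 3. Depth limits NAT8L most, with 31 counts in its lowest drug library.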
